A study of Arabidopsis thaliana with 6 samples.

Results

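The comparison is between seedlings of Can-0 and seedlings of Col-0, which are natural accessions (wild-collected inbred lines) of Arabidopsis thaliana. Col-0 is the accession behind the reference genome, and Can-0 comes from the Canary Islands. All features with at least 1 RPKM (read counts divided by the length of the gene model and by the mapped reads of the library) in either seedling library were taken, 17901 of the 28775 features listed. The difference used throughout is log2(RPKM + 1) in Can-0 minus log2(RPKM + 1) in Col-0, so a positive value means a higher level in Can-0. Where the lower level is near 0 this difference depends on the 1 that is added, and it is not a fold. A gene was counted as higher or lower where the difference reached 2 in size.

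Both groups were 11-day-old seedlings raised in soil with 16 hours of light and 8 hours of dark at 20 C, and the polyadenylated RNA of each was sequenced as 1 library in run 33, Col-0 in lane 2 and Can-0 in lane 1. The labels name no transgene, mutation or treatment for either group. The series also holds 1 root library (10 days, from plates) and 1 floral bud library (stage 12) of each accession, which are used here only to ask how the seedling differences looked in other tissues. The sources used here do not give the hour of harvest or the number of plants behind a library. If the seedling samples were taken at different hours, hour and accession cannot be told apart in any gene list below. With 1 library a group there is no replicate, so no difference below has a replicate check, and none carries a p-value. In such bulk samples, fewer cells of a type and less RNA per cell cannot be told apart.

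Several pathways known to vary among accessions are measured in these seedlings. Glucosinolates are the sulfur-rich defence compounds of the cabbage family; aliphatic ones are built from methionine and indole ones from tryptophan, and on wounding the enzyme myrosinase splits them into products that specifier proteins direct. The circadian clock is a loop of transcriptional repressors, in which genes that peak near dawn and genes that peak near dusk hold each other down, and the dusk genes are reached by dawn proteins through a short promoter sequence, the evening element. FLC is the repressor that delays flowering until winter has passed, and it stands above the floral activator SOC1.

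The promoters of an evening clock gene (FKF1) and of a cold gene (KIN1), both higher in Can-0 by at least 2, are shown first as examples of windows that carry this element. Each is the 250 bases before the annotated start in the RefSeq annotation of assembly TAIR10.1, read 5′ to 3′ on the gene's strand, with the evening element (AAATATCT, on either strand) in capitals. They lie at chr1:25508389-25508638 (plus strand) for FKF1 and chr5:5209467-5209716 (plus strand) for KIN1, and neither overlaps another annotated gene.
FKF1: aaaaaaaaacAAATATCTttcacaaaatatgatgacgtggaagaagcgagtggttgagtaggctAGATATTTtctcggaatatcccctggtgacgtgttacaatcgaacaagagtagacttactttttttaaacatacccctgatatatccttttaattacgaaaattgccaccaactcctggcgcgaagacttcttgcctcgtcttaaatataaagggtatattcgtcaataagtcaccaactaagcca
KIN1: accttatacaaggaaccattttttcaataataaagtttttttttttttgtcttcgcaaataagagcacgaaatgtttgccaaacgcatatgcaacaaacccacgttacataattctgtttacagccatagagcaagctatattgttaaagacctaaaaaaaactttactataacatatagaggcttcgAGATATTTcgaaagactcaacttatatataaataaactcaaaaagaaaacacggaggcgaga
The element begins 240 and 186 bases before the start in FKF1 and 62 bases before it in KIN1. The same window of PRR3 and of AT4G33980 held none.

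Most transcripts stood at like levels in both seedlings. The median difference over the 17901 genes was 0.04, the quartiles were -0.21 and 0.30, and 73.9% of genes lay within 0.5 of equality. Of these genes 202 (1.13%) were higher in Can-0 by at least 2 and 178 (0.994%) were lower by at least 2, 380 in all (2.12%). At a difference of 1 the counts were 855 higher (4.78%) and 757 lower (4.23%). Above 0 stood 9765 genes and below it 8136. The counts of the gene lists below are to be read beside these shares. Those lists were chosen with earlier results of these data known, so their counts describe the data and give no independent support. The genes nearest the threshold stood at 2.00178 and -2.00169 inside it and at 1.99759 and -1.99892 outside, so the counts do not mark a gap in the values. Past a difference of 4 there were 24 higher and 20 lower genes. The added constant decides how many weakly expressed genes count: with 5 RPKM added in place of 1 the counts were 67 and 44, and with 0.1 they were 437 and 374.

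**Figure D1:**
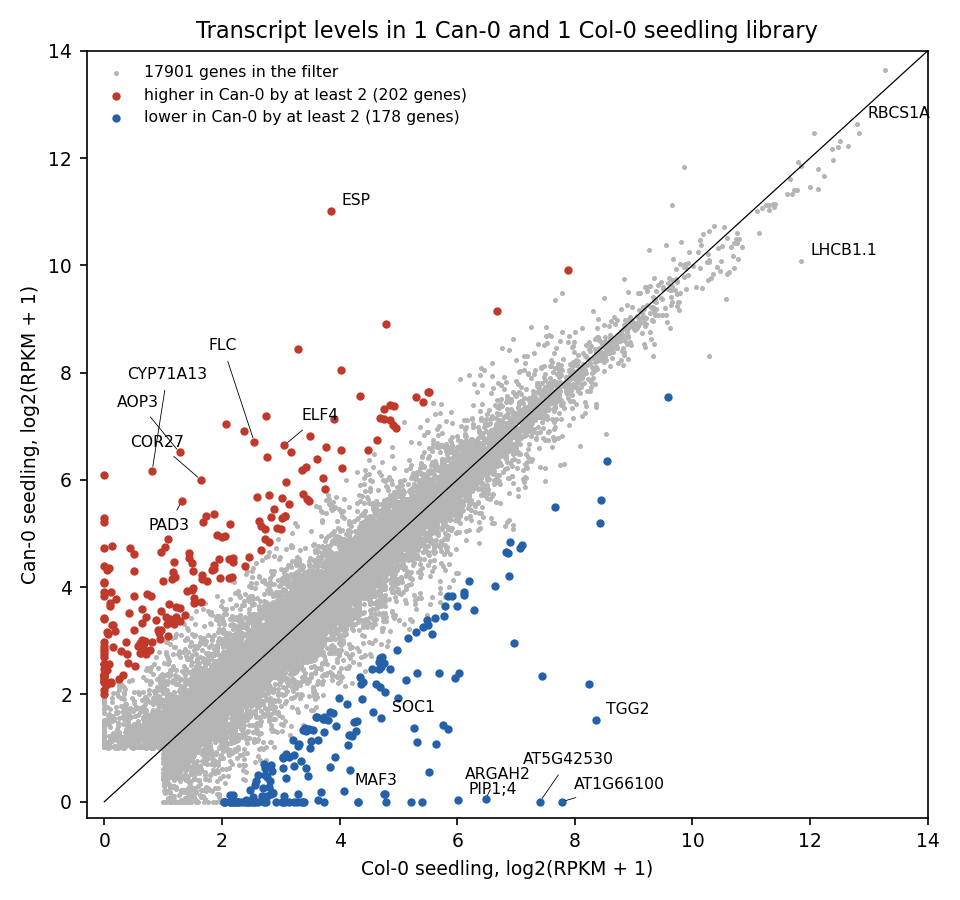
Each point is 1 of the 17901 genes, with its Col-0 seedling level on the horizontal axis and its Can-0 seedling level on the vertical axis, both as log2(RPKM + 1). The 202 higher genes (red) and 178 lower genes (blue) flank a dense diagonal, and ESP, AOP3 and FLC lie far above it while TGG2, ARGAH2 and AT1G66100 lie far below.

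The seedling libraries were close in depth, with about 22630000 mapped reads for Col-0 and 21810000 for Can-0 as estimated from the step between small values. A read in a gene of 1 kb is then worth 0.0442 and 0.0459 RPKM, and the 95% interval of a log2 ratio from counting error alone has a half-width of 0.91 at 1 RPKM, 0.27 at 10 RPKM and 0.0855 at 100 RPKM. That ratio has no constant added, unlike the differences used here, so the widths are not on their scale. Counting error leaves out the spread between plants, which these libraries do not show. Leaf genes were at high levels in both libraries: RBCS1A, a small subunit of Rubisco, stood at 7131 RPKM in Col-0 and 6323 RPKM in Can-0. None of the 11 root markers reached 1 RPKM in either library, the highest being 0.214 RPKM in Col-0 and 0.161 RPKM in Can-0. Of the 5 flower markers, the petal and stamen gene PI was above 1 RPKM, at 1.21 RPKM in Col-0 and 0.209 RPKM in Can-0.

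Clock genes were offset in opposite directions by their time of day. All 14 genes of the morning clock were lower in Can-0 (median -0.98), 7 of them by at least 1 and 2 by at least 2, and 11 of the 12 evening clock genes were higher (median 0.99), 6 by at least 1 and 3 by at least 2. Over all genes the median was 0.04. Lower by at least 1 were 4.23% of all genes and by at least 2 0.994%, and 4.78% and 1.13% were higher by these margins. CCA1, a dawn repressor at the centre of the loop, stood at 16.7 RPKM in Col-0 and 4.62 RPKM in Can-0, a difference of -1.66. Its partner LHY was at 4.1 RPKM and 1.80 RPKM (-0.86). PRR9, the first of the pseudo-response regulators to appear in the day, was at 11.2 RPKM in Col-0 and 1.98 RPKM in Can-0 (-2.03). COL2, a CONSTANS-like gene, had the lowest value of the list, with 14.8 RPKM in Col-0 and 2.82 RPKM in Can-0 (-2.05). The MYB-like gene RVE1 (6.41 and 1.02 RPKM, -1.87) and its relative RVE8 (7.10 and 1.48 RPKM, -1.71) followed. LNK1 was the member nearest to equality, at -0.28.

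On the evening side ELF4, a subunit of the repressor complex that acts at dusk, was at 7.35 RPKM in Col-0 and 99.2 RPKM in Can-0 (3.58). LUX, the DNA-binding subunit of that complex, was at 19.7 RPKM and 51.1 RPKM (1.33), while the third subunit, ELF3, stood at 15.5 RPKM and 18.5 RPKM (0.24). FKF1, a blue-light receptor of the F-box class that acts on flowering in the afternoon, was at 11.3 RPKM in Col-0 and 82.3 RPKM in Can-0 (2.76). The pseudo-response regulators PRR3 (5.65 and 32.9 RPKM, 2.35), TOC1 (13.5 and 45.8 RPKM, 1.69) and PRR5 (35.7 and 73.7 RPKM, 1.02) were likewise higher in Can-0. Of the other two members of the FKF1 family, ZTL was at 12.4 RPKM in each library and LKP2 differed by 0.02.

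In the other tissues the lists lay closer to 0: the morning genes had a median of 0.07 in root and 0.18 in floral bud, and the evening genes 0.13 in root and -0.33 in floral bud. In root CCA1 was at 0.622 RPKM in Col-0 and 1.17 RPKM in Can-0, and in floral bud at 12.2 RPKM and 25.6 RPKM, so in both of these tissues Can-0 had the higher value. ELF4 was at 269 RPKM and 305 RPKM in root and at 101 RPKM and 192 RPKM in floral bud. Each tissue pair had its own Col-0 library. The sources used here do not say whether both seedling samples were taken at the same hour, so clock phase and hour of harvest cannot be told apart.

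**Figure D2:**
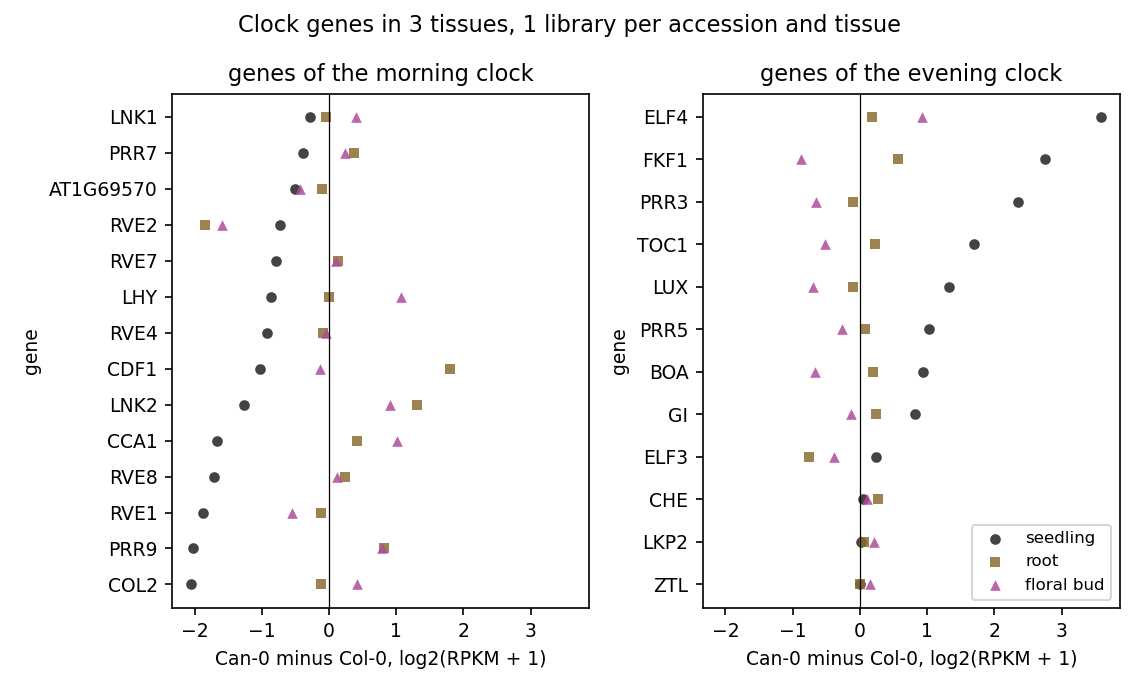
Points give Can-0 minus Col-0 on the log2(RPKM + 1) scale for the 14 morning clock genes (left) and 12 evening clock genes (right) in seedling, root and floral bud, 1 library for each accession and tissue. Seedling values (black circles) lie below 0 for all 14 morning genes and reach 3.58 at ELF4 among the evening genes, while the root and bud values scatter about 0.

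A few genes of the cold response were far higher in Can-0. Of 20 cold and osmotic response genes in the filter (23 listed), 3 were higher in Can-0 by at least 2 and 6 by at least 1, and 2 were lower by at least 1. Among all genes in the filter these shares were 1.13%, 4.78% and 4.23%. The median was 0.49 and ranged from 0.21 with no filter to 0.74 with a filter of 5 RPKM. COR27, a cold-regulated gene that is also tied to the clock, was at 2.12 RPKM in Col-0 and 63.0 RPKM in Can-0 (4.36). KIN1, a small hydrophilic stress protein gene, was at 1.05 RPKM and 26.1 RPKM (3.73), and AT4G33980, annotated as an uncharacterized protein, at 1.26 RPKM and 21 RPKM (3.28). The upstream activators went the other way. CBF1 stood at 2.29 RPKM in Col-0 and 0.339 RPKM in Can-0 (-1.30), and CBF2 at 2.67 RPKM and 0.194 RPKM (-1.62). The classical cold targets COR15A (28.6 and 85.8 RPKM, 1.55) and RD29A (22.3 and 61.9 RPKM, 1.43) were higher in Can-0. In root and floral bud the list had medians of -0.60 and -0.79, and COR27 was lower in Can-0 in both, at 42.9 and 11.0 RPKM in root and 145 and 33.2 RPKM in floral bud.

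The evening element was found in the 250 bases before the start of 6 of the 12 evening clock genes (50%) and 7 of the 23 cold genes (30.4%), against 1293 of all 26709 promoters (4.84%). It was in 26 of the 200 promoters of genes higher by at least 2 (13%) and in 18 of the 177 promoters of genes lower by at least 2 (10.2%). Of the 14 morning clock promoters 2 held it. The CRT/DRE core CCGAC, the site of the CBF proteins, was in 8 of the 23 cold promoters (34.8%) and in 11.9% of all promoters, but in 9.5% of the promoters of higher genes and 9.6% of those of lower genes. The G-box CACGTG was in 6 of the 14 morning clock promoters (42.9%), in 5 of the 27 jasmonate promoters (18.5%) and in 6.58% of all. The W-box (TTGACC or TTGACT, the site of WRKY factors) was in 5 of the 29 salicylic acid promoters (17.2%), fewer than the 28.5% of all promoters, and in 31% of the promoters of higher genes. The CCA1 site AAAAATCT was in 2 of the 14 morning and 2 of the 12 evening clock promoters and in 5.5% of the promoters of higher genes, against 6.74% of all. A match to these letters is a description of the window and no evidence of binding.

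Transcripts of aliphatic glucosinolate synthesis were higher in Can-0 at most steps, apart from the side-chain genes, which went both ways. Of 29 genes 25 were above 0 and 10 were higher by at least 1 (median 0.75), against 4.78% of all genes higher by at least 1. The summed level of the list was 2811 RPKM in Col-0 and 5601 RPKM in Can-0, of which the single gene GSTU20 held 803 RPKM and 2236 RPKM. The regulators MYB28 (35.3 and 39.9 RPKM, 0.17) and MYB29 (50.5 and 55.8 RPKM, 0.14) were near equality. For chain elongation, BCAT4, the aminotransferase of the first step, was at 153 RPKM in Col-0 and 458 RPKM in Can-0 (1.58), and IPMI1, an isomerase subunit, was at 52.0 RPKM and 169 RPKM (1.68). The methylthioalkylmalate synthases split. MAM1 was at 195 RPKM in Col-0 and 139 RPKM in Can-0 (-0.48), and MAM3, which makes longer chains, was at 15.4 RPKM and 73.2 RPKM (2.18). For the core structure, CYP79F1 was at 139.7 RPKM and 316 RPKM (1.17), CYP83A1 at 103 RPKM and 222 RPKM (1.1) and the glutathione transferase GSTU20 at 803 RPKM and 2236 RPKM (1.48).

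The side-chain genes had the widest gaps of the pathway. AOP3, an oxygenase that turns the methylsulfinyl side chain into a hydroxyalkyl one, stood at 1.43 RPKM in Col-0 and 90.3 RPKM in Can-0 (5.23). AOP1, from the same family, was at 11.5 RPKM and 44.3 RPKM (1.85). AT2G25450, annotated as a member of the 2-oxoglutarate and Fe(II)-dependent oxygenases, was at 172 RPKM in Col-0 and 4.1 RPKM in Can-0 (-5.08). The flavin monooxygenase FMOGS-OX3, which oxidizes the methylthio side chain, was at 63.3 RPKM and 37.9 RPKM (-0.73). AOP3 and AT2G25450 kept these directions in the other tissues, with 0.0548 and 4.96 RPKM of AOP3 in root, 0.435 and 10.5 RPKM in floral bud, 324 and 0.793 RPKM of AT2G25450 in root and 107 and 1.41 RPKM in floral bud. The list as a whole had a median of -0.06 in root and 0.76 in floral bud.

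Among the genes of glucosinolate breakdown, of which 10 of 12 were in the filter, 3 had differences far past 2 and the others stayed within 1.56. Past 2 in either direction were 2.12% of all genes. ESP (AT1G54040), the specifier protein that steers breakdown to epithionitriles and nitriles, was at 13.5 RPKM in Col-0 and 2064 RPKM in Can-0. Its difference of 7.15 was the highest of all 17901 genes. ESM1, which favours isothiocyanates over nitriles, was at 349 RPKM and 48.3 RPKM (-2.83). The myrosinases split: TGG1 stood at 841 RPKM in Col-0 and 974 RPKM in Can-0 (0.21), whereas TGG2 was at 326 RPKM and 1.87 RPKM (-6.83). Floral bud showed a like picture, with 18 RPKM of ESP in Col-0 and 3221 RPKM in Can-0 and with 1207 and 6.76 RPKM of TGG2. In root TGG2 was listed at 0 in both libraries and ESP at 0 in Col-0 and 0.527 RPKM in Can-0. NSP4, a nitrile specifier, was at 3.08 RPKM and 11.0 RPKM (1.56), and since it has a near-identical copy in NSP1, reads may have been shared between them.

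**Figure D3:**
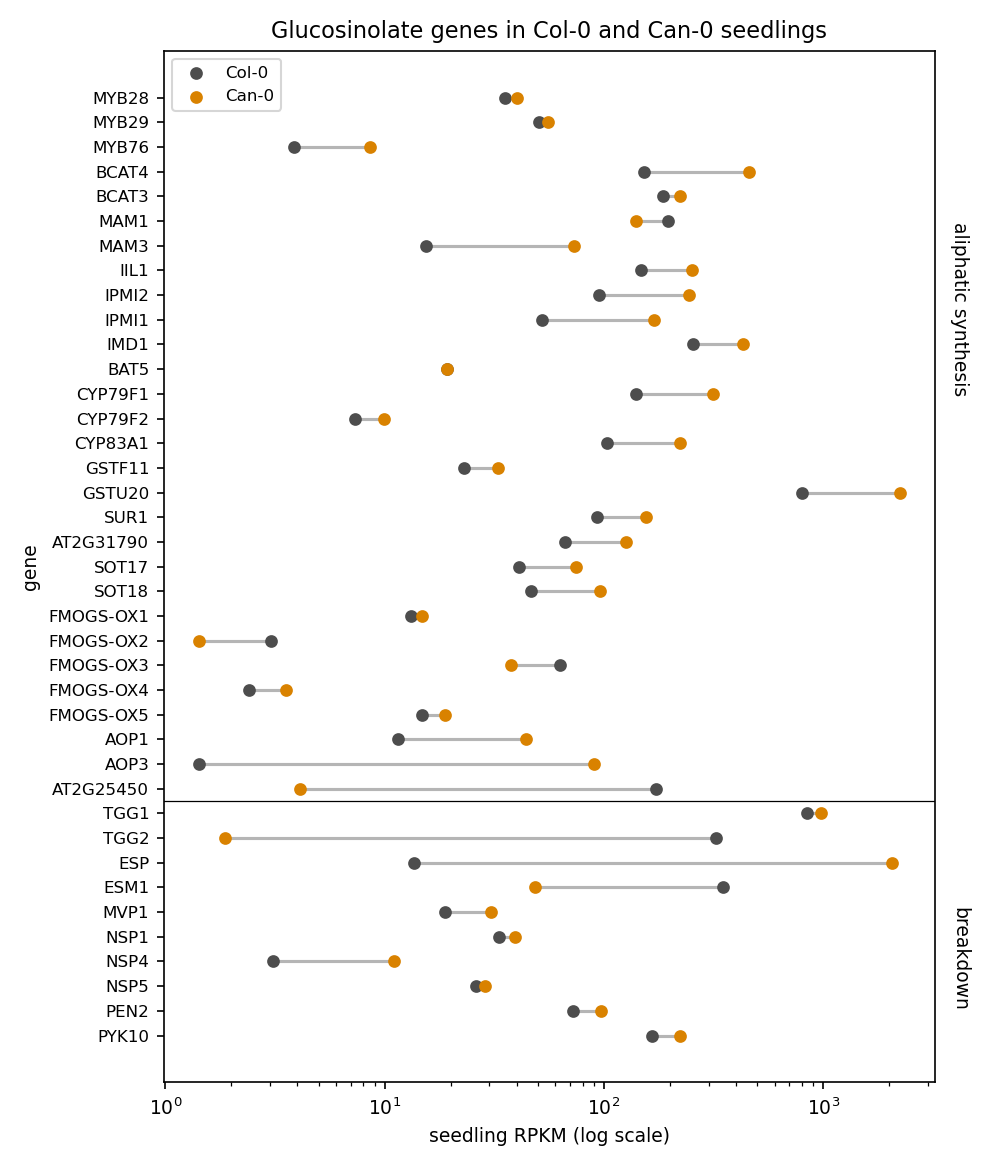
The horizontal axis (log scale) gives the seedling RPKM of each aliphatic glucosinolate synthesis gene (above the line) and breakdown gene (below it), with Col-0 in grey and Can-0 in orange, joined by a bar. Most synthesis genes lie to the right in Can-0, AOP3 and ESP by the longest bars, while AT2G25450, TGG2 and ESM1 lie to the left.

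Most tryptophan-derived defence genes stood higher in Can-0, the camalexin genes by the widest margin. Camalexin is the antimicrobial indole compound of Arabidopsis leaves. Of 18 indole glucosinolate and camalexin genes in the filter (20 listed), 16 were above 0, 7 were higher by at least 1 and 3 by at least 2 (median 0.74, or 0.46 with 5 RPKM added). The shares of all genes higher by these margins were 4.78% and 1.13%. CYP71A13, which makes indole-3-acetonitrile for camalexin, was at 0.758 RPKM in Col-0 and 71.2 RPKM in Can-0 (5.36), and PAD3, the enzyme of the last step, at 1.49 RPKM and 47.8 RPKM (4.29). CYP71A12, close to CYP71A13 in sequence and function, was at 0.891 RPKM and 8.21 RPKM (2.28). The other 4 genes past 1 were IGMT2, a methyltransferase of indole glucosinolates (4.68 and 18.6 RPKM, 1.79), the glutathione transferase GSTF10 (181 and 412 RPKM, 1.18), GGP1, a peptidase of glucosinolate synthesis (188 and 416 RPKM, 1.15), and CYP81F3, which modifies the indole ring (0.876 and 2.86 RPKM, 1.04). IGMT2 has a near-identical copy. The shared upstream enzymes CYP79B2 (27.4 and 41.1 RPKM, 0.57) and CYP79B3 (34.6 and 42.6 RPKM, 0.29) and the regulator MYB51 (11.6 and 12.1 RPKM, 0.05) differed little. In root PAD3 was at 40.9 RPKM and 37.5 RPKM, and CYP71A12 was lower in Can-0, at 22.3 RPKM and 2.12 RPKM.

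Salicylic acid defence genes, whose pathway answers pathogens that live on living cells, were higher in Can-0 as a group. All 29 were in the filter, 25 were above 0, 14 were higher by at least 1 and 6 by at least 2, and none was lower by 1 (median 0.97, or 0.61 with 5 RPKM added). Among all genes 4.78% were higher by at least 1, 1.13% higher by at least 2 and 4.23% lower by at least 1. PCC1, a gene under pathogen and circadian control, had the highest level of the list in both libraries, at 203 RPKM in Col-0 and 351 RPKM in Can-0 (0.78). Of the secreted pathogenesis-related proteins, PR1 was at 72.7 RPKM in Col-0 and 248 RPKM in Can-0 (1.76), PR2 at 28.8 RPKM and 97.3 RPKM (1.72) and PR5 at 15.2 RPKM and 93.0 RPKM (2.54). NIMIN1, which binds the receptor NPR1, was at 2.86 RPKM and 22.1 RPKM (2.58), and LURP1, a gene induced on infection with downy mildew, at 24.7 RPKM and 142 RPKM (2.47). The glutaredoxin GRX480 (0.957 and 8.18 RPKM, 2.23), the pipecolic acid enzyme ALD1 (0.921 and 7.23 RPKM, 2.1) and the nudix hydrolase NUDT6 (5.36 and 24.9 RPKM, 2.03) completed the 6. Genes further up showed smaller gaps, with EDS1 at 14.2 RPKM and 44.1 RPKM (1.57), the synthesis enzyme ICS1 at 4.99 RPKM and 6.63 RPKM (0.35) and NPR1 at 26 RPKM and 34.4 RPKM (0.39). ACD6, a locus known for natural variation in leaf defence, was at 54.1 RPKM in Col-0 and 42.7 RPKM in Can-0 (-0.33). In root the list had a median of -0.00 and in floral bud 0.59.

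Jasmonate genes, which serve the response to wounding and insects, were also higher in Can-0, and the synthesis enzymes stood out. Of 24 in the filter (27 listed), 22 were above 0, 11 were higher by at least 1 and 3 by at least 2 (median 0.88). The shares of all genes past these thresholds were 4.78% and 1.13%. LOX2, the chloroplast lipoxygenase that starts the pathway in leaves, was at 234 RPKM in Col-0 and 960.5 RPKM in Can-0 (2.03). AOS, the next enzyme, was at 127 RPKM and 301 RPKM (1.24), and AOC1, an allene oxide cyclase, at 9.29 RPKM and 71.3 RPKM (2.81). AOC3, from the same family, was just under the threshold at 1.93 RPKM and 10.7 RPKM. VSP1, a storage protein and classical jasmonate target, was at 9.77 RPKM and 74.6 RPKM (2.81), and the repressor JAZ10 at 0.992 RPKM and 4.15 RPKM (1.37). The receptor COI1 stood at 18 RPKM and 17 RPKM (-0.06). Root and floral bud gave medians of -0.03 and 0.29.

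The intracellular immune receptors (NLR proteins, which recognize pathogen effectors) held several genes far lower in Can-0. Of 36 in the filter (38 listed) none was higher by 2 and 5 were lower by at least 2, with a median of -0.10 that became -0.35 with a filter of 5 RPKM. RLM3, a truncated receptor needed against necrotrophic fungi, was at 124 RPKM in Col-0 and 6.76 RPKM in Can-0 (-4.01). AT4G19500 was at 17.5 RPKM and 1.35 RPKM (-2.98). RPM1, which guards the protein RIN4, stood at 5.59 RPKM in Col-0 and was listed at 0 in Can-0 (-2.72), and it was listed at 0 in Can-0 root and floral bud as well. SNC1 was at 44.3 RPKM and 8.83 RPKM (-2.21), and its cluster neighbours RPP5 (35.2 and 8.30 RPKM, -1.96) and RPP4 (20.2 and 5.54 RPKM, -1.70) were lower too. By locus number RLM3 (AT4G16990) also lies near SNC1 (AT4G16890) on chromosome 4, so the lower genes of the list are not all separate loci. VICTL was at 9.17 RPKM and 0.692 RPKM (-2.59), while its near-identical copy VICTR was at 2.59 RPKM and 4.02 RPKM, so the reads of this pair may have been divided between them. ZAR1 (46.6 and 69.6 RPKM, 0.57) and ADR1 (3.23 and 3.32 RPKM, 0.03) differed little. Over all 120 genes in the filter whose annotated product names a resistance protein of this kind, a group formed after the values were seen, 4 were higher by at least 2 (3.33%, against 1.13% of all genes) and 19 lower (15.8%, against 0.994% of all genes). Some lower resistance genes are adjacent, such as AT4G19520 and AT4G19530, so these counts are not of independent loci. The 8 cell-surface immune receptors in the filter (9 listed) ranged from -0.27 for BIK1 to 0.71 for EFR, with a median of 0.46.

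**Figure D4:**
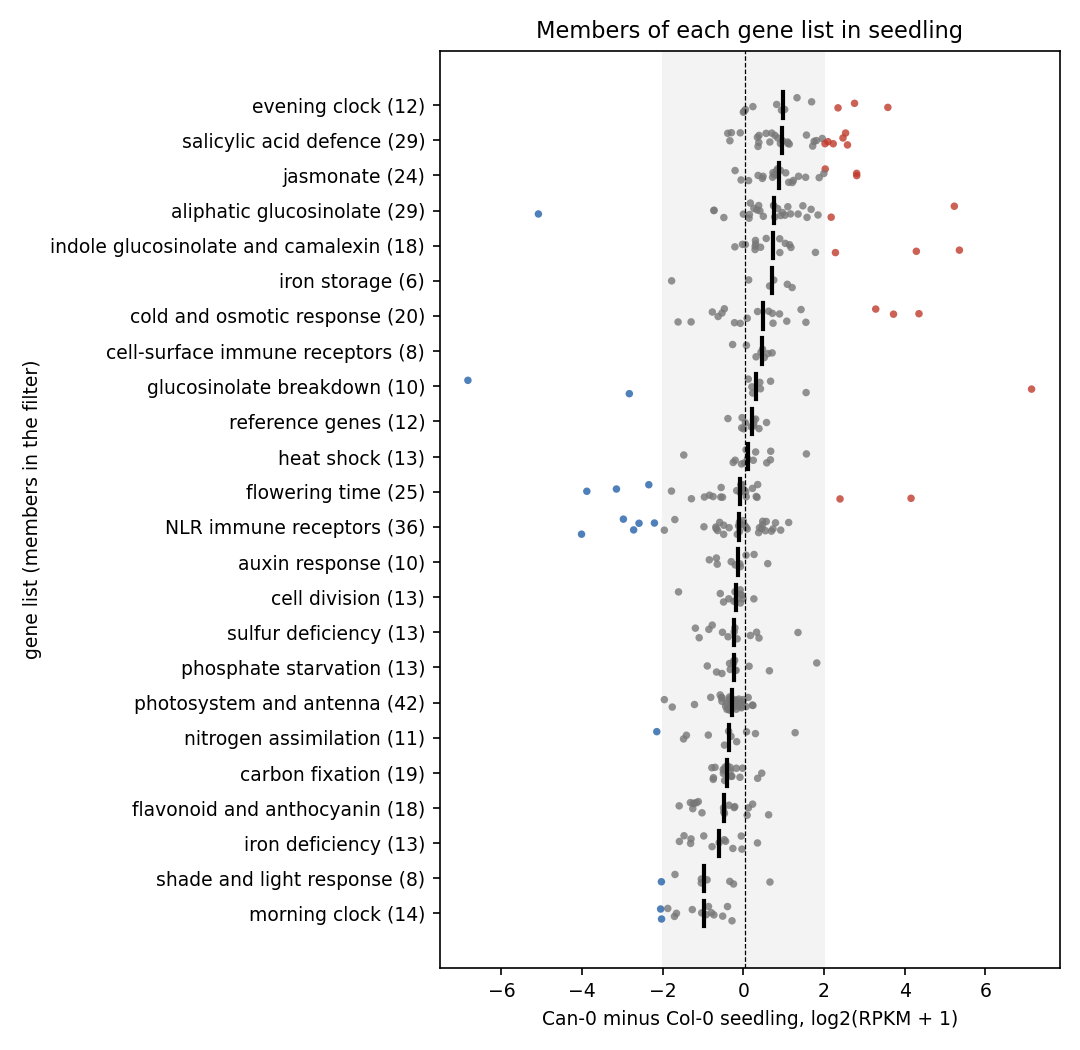
Each point is a gene of a list, placed by its Can-0 minus Col-0 difference in seedling on the log2(RPKM + 1) scale, with the list median as a black bar and the median of all genes (0.04) as a dashed line; lists with under 5 members in the filter are left out. Red and blue points lie at or past 2, and the medians run from 0.99 for the evening clock to -0.98 for the morning clock.

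FLC (AT5G10140) was at 4.85 RPKM in the Col-0 seedling and 104 RPKM in the Can-0 seedling, a difference of 4.16. In root its levels were 0.124 RPKM and 106 RPKM and in floral bud 0.123 RPKM and 27.8 RPKM, so Can-0 had the higher level in all 3 tissues. SOC1, the floral activator that FLC represses, was at 25.1 RPKM in Col-0 and 1.95 RPKM in Can-0 seedlings (-3.15), at 11.9 RPKM and 0.959 RPKM in root, and at 50.6 RPKM in both floral bud libraries. FRI, the activator of FLC, stood at 2.83 RPKM and 3.91 RPKM in seedlings (0.36). Its transcript level does not show whether the FRI protein works in either accession.

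The relatives of FLC went in both directions. MAF3 was at 15.9 RPKM in Col-0 and 0.147 RPKM in Can-0 (-3.88), FLM at 33.3 RPKM and 8.98 RPKM (-1.78) and MAF5 at 1.07 RPKM and 9.92 RPKM (2.40). The repressor TEM2 was at 62.5 RPKM and 11.5 RPKM (-2.34), and AGL24, another floral activator, at 14.5 RPKM and 5.36 RPKM (-1.29). FT, the mobile flowering signal, was under the filter, with 0.517 RPKM in Col-0 and 0 listed for Can-0. Of the 33 genes of the list 25 were in the filter, with a median of -0.08 that became -0.52 with a filter of 5 RPKM. The chromatin and RNA-processing regulators FCA, FLD, FVE and LD differed by between -0.08 and -0.02.

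Photosynthesis genes, abundant in both libraries, were slightly lower in Can-0. Of 42 photosystem and antenna genes 38 were below 0, none by as much as 2 (median -0.27), and their summed level was 87423 RPKM in Col-0 and 71529 RPKM in Can-0. The margin depends on the scaling, since the median was -0.08 after quantile normalization. LHCB2.3, an antenna protein of photosystem II, was at 1236 RPKM and 317 RPKM (-1.96), and LHCB2.1 at 1528 RPKM and 659 RPKM (-1.21). LHCB2.2 of the same family went the other way, at 1128 RPKM and 1329 RPKM (0.24). LHCB1.1 was at 3659 RPKM and 1077 RPKM (-1.76), but it has a near-identical copy in LHCB1.3, and reads may have been shared among these genes. LHCB1.2, with the same near-identical copy, was at 3562 RPKM and 3873 RPKM (0.12). PSBS, which dissipates excess light, was at 647 RPKM and 369 RPKM (-0.81). Carbon fixation showed the same small offset in 17 of 19 genes (median -0.40), with the activase RCA at 4494 RPKM and 2761 RPKM (-0.70) and FBA1, a fructose-bisphosphate aldolase, at 784 RPKM and 456 RPKM (-0.78). Chloroplast-encoded genes made up 6.37% of summed RPKM in Col-0 and 6.6% in Can-0.

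Light and shade genes were lower in Can-0 in 7 of 8 cases (median -0.97, or -0.47 with 5 RPKM added; 11 listed). ELIP2, a chlorophyll-binding protein of high-light stress, was at 11.2 RPKM in Col-0 and 1.99 RPKM in Can-0 (-2.03), and ELIP1 at 15.3 RPKM and 4.05 RPKM (-1.70). PIF5, a growth-promoting factor under clock and light control, was at 51.7 RPKM and 24.6 RPKM (-1.04), and HY5, which promotes light responses, at 15.1 RPKM and 24.5 RPKM (0.66). Flavonoid and anthocyanin genes had 8 of 18 (22 listed) lower by at least 1 and none higher by 1 (median -0.49), against 4.23% and 4.78% of all genes. The late anthocyanin enzymes DFR (37.8 and 11.9 RPKM, -1.59) and LDOX (45.2 and 18 RPKM, -1.31) were lower, as was CHS, which opens the pathway (85.2 and 38.8 RPKM, -1.12). FLS1, on the flavonol branch, was at 19.0 RPKM and 29.9 RPKM (0.63).

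Among the nutrient lists the sharpest single gap was in nitrate reduction. NIA1 was at 30.5 RPKM in Col-0 and 6.12 RPKM in Can-0 (-2.15), and NIA2, the main nitrate reductase of leaves, at 215 RPKM and 76.1 RPKM (-1.48). NIR1, which takes the next step, was at 332 RPKM and 268 RPKM (-0.31). The cytosolic glutamine synthetase GLN1;1 was higher, at 49.4 RPKM and 122 RPKM (1.29), and ASN1, an asparagine synthetase, was at 1.66 RPKM in Col-0 and listed at 0 in Can-0 (-1.41). Over the 11 nitrogen genes the median was -0.36.

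Iron genes split by function. Of 13 genes of the iron deficiency list in the filter (20 listed) 12 were below 0 and 4 were lower by at least 1 (median -0.60), against 4.23% of all genes lower by at least 1. FIT (-0.05) and NAS4 (-0.04) were near equality, and NAS3 was above 0 (0.35). Of 6 iron storage genes 5 were above 0 (median 0.70). The ferritins FER1 (26.2 and 62.0 RPKM, 1.21) and FER4 (42.3 and 91.3 RPKM, 1.09) stood higher in Can-0. The deficiency regulators BHLH100 (1.48 RPKM in Col-0) and BHLH101 (1.77 RPKM in Col-0) were listed at 0 in Can-0, and AT2G30766 was at 23.3 RPKM and 7.11 RPKM (-1.59). In root the same deficiency genes had a median of 0.27, with AT2G30766 at 0.294 RPKM and 4.44 RPKM. VTL5, an iron transporter of the vacuolar kind, went against the other storage genes at 2.79 RPKM and 0.105 RPKM (-1.78).

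In the remaining lists CYP705A1 was the only gene past 2. Sulfur deficiency genes had a median of -0.23 (13 of 14 in the filter), with the adenylylsulfate reductase APR2 at 129 RPKM and 56.2 RPKM (-1.19) and GGCT2;1, of glutathione turnover, at 4.41 RPKM and 12.8 RPKM (1.36). Phosphate starvation genes had a median of -0.24 (13 of 19 in the filter), and RNS1, a secreted ribonuclease, was at 0.338 RPKM and 3.73 RPKM (1.82). Heat shock genes had a median of 0.11 (13 of 19), with HSP70 (AT3G12580) at 3.91 RPKM and 13.5 RPKM (1.56) and the factor HSFA7A at 6.15 RPKM and 1.57 RPKM (-1.48). Auxin response (10 of 12, median -0.14) and cell division (13 of 13, median -0.17) held no gene past 2. CDC20.1, an activator of the anaphase-promoting complex, was the sole cell division gene past 1, at 31 RPKM and 9.51 RPKM (-1.61), and it has a near-identical copy. Of the 8 genes of the root triterpene clusters, CYP705A1 alone was in the filter, listed at 0 in Col-0 and at 3.05 RPKM in Can-0 (2.02). The 12 reference genes ranged from -0.38 for UBC9 to 0.58 for UBC21, with a median of 0.22.

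Outside the lists the greatest gaps were at single genes, several of them with next to no reads in one accession. AT1G66100, a thionin (a small antimicrobial peptide), was at 218 RPKM in Col-0 and listed at 0 in Can-0 (-7.78), the lowest difference of all. AT5G42530, an uncharacterized protein, was at 169 RPKM and 0 (-7.41). ARGAH2, an arginase, was at 88.4 RPKM and 0.0315 RPKM (-6.44), AT1G23130, a lipid-binding protein of the polyketide cyclase family, at 301 RPKM and 3.56 RPKM (-6.05), and the aquaporin PIP1;4 at 63.5 RPKM and 0.0257 RPKM (-5.97). AT2G14285 (41.3 RPKM in Col-0), annotated as a small nuclear ribonucleoprotein, and AT5G49440 (36 RPKM in Col-0) were also listed at 0 in Can-0. AT4G34881 was at 44.9 RPKM and 0.467 RPKM (-4.97) and has a near-identical copy. On the higher side AT3G62460, annotated as a putative endonuclease or glycosyl hydrolase, was at 8.81 RPKM in Col-0 and 347 RPKM in Can-0 (5.15), and AT3G48640 at 3.21 RPKM and 131 RPKM (4.97). AT5G03090 (67.5 RPKM in Can-0), AT3G28320 (38.3 RPKM), AT1G03106 (36 RPKM) and UBQ13, a ubiquitin gene (25.5 RPKM), were listed at 0 in Col-0. AT4G18422 was at 0.1 RPKM and 26.4 RPKM (4.64).

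Some of the called genes were listed at 0 in 1 accession. Of the 178 lower genes 41 (23.0%) were listed at 0 in the Can-0 seedling and 32 in all 3 Can-0 libraries, against 87 (0.486%) and 56 of all 17901 genes. Of the 202 higher genes 32 (15.8%) were listed at 0 in the Col-0 seedling and 17 in all 3 Col-0 libraries, against 85 (0.475%) and 43 of all. The rule itself favours such genes, since a high level set against 0 gives a wide difference. A near-identical copy elsewhere in the annotation was found for 16 of the lower genes (8.99%), 5 of the higher genes (2.48%) and 1.09% of all genes in the filter. Among the 1301 genes with at least 100 RPKM in the higher library 26 were higher and 17 lower (3.31% past 2). Among the 4385 genes between 1 and 5 RPKM 23 were higher and 27 lower (1.14%), and over all genes the share was 2.12%. With 1 RPKM added, the weakest genes in the filter cannot reach a difference of 2, so these shares follow in part from the rule.

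In root and floral bud, whose libraries took no part in choosing the genes, part of the seedling differences were seen again. The floral bud pair also differs in sequencing run, so accession and run cannot be told apart in it. Of the 178 genes lower in seedling 66 (37.1%) were also lower by at least 2 in root and 86 (48.3%) in floral bud, 54 of them in both. Of the 202 genes higher in seedling 47 (23.3%) were also higher by at least 2 in root and 65 (32.2%) in floral bud, 34 of them in both. Over all genes 1.18% were lower and 0.706% higher in root, and 0.927% were lower and 0.835% higher in floral bud. Read from the other lists, these are 29.5% of the 224 genes lower in root, 47.3% of the 182 lower in floral bud, 35.1% of the 134 higher in root and 39.6% of the 164 higher in floral bud. Opposite differences of at least 2 were seen for 5 of the higher genes in root and 1 in floral bud, and for 1 of the lower genes in root. FLC, PIP1;4 and AT2G25450 kept their direction in all 3 tissues, and ESP and TGG2 in seedling and floral bud. In contrast 42 higher and 20 lower genes were in the filter of both other tissues yet under 1 in their seedling direction in each.

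**Figure D5:**
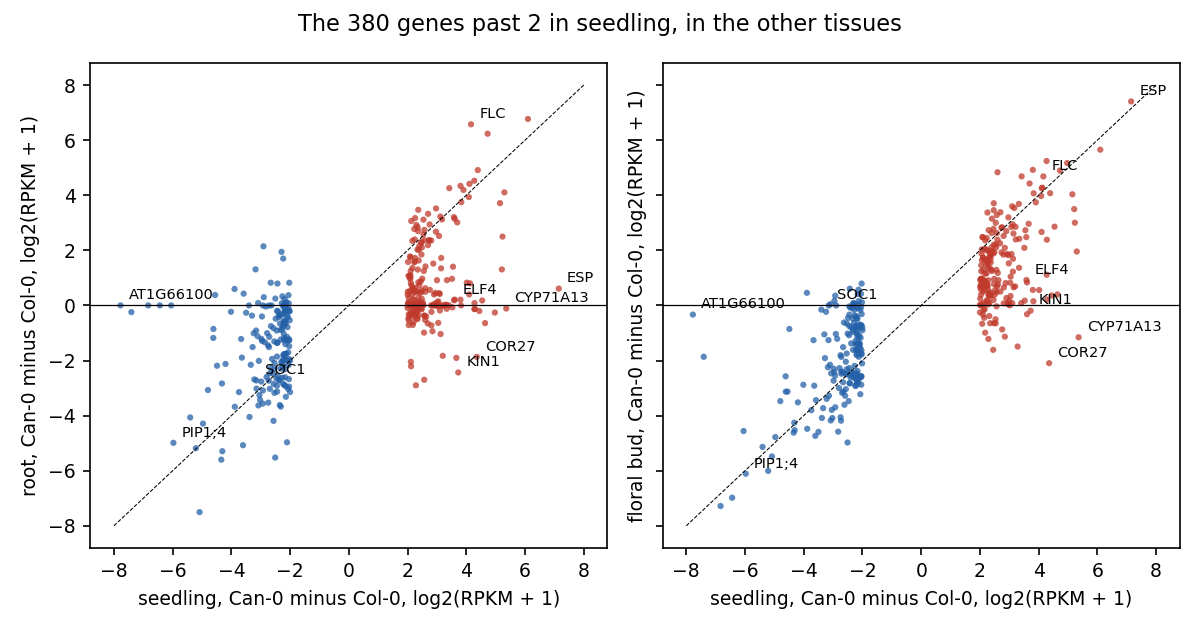
For the 380 genes past 2 in seedling, the horizontal axis is the seedling difference and the vertical axis the root (left) or floral bud (right) difference, all Can-0 minus Col-0 on log2(RPKM + 1); the dashed line marks equal differences. FLC lies near or above that line in both panels, ESP near it in floral bud only, and COR27 and KIN1 lie below 0 in root.

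Some called genes lay side by side. Of the 377 genes past 2 that are placed on chromosomes, 41 (10.9%) had a neighbour past 2, against 2.52% of the 17761 genes in the filter that are placed on chromosomes. They formed 20 runs of adjacent genes, and 19 of the runs went in 1 direction. With 5 RPKM added in place of 1, 0 called genes had a called neighbour, and with 0.1 added 106 did. The longest held 3 wall-associated kinases, receptors that bind cell wall pectin: WAK4 (0.0341 and 19.0 RPKM, 4.27), WAK5 (listed at 0 and 6.48 RPKM, 2.90) and WAK3 (0.732 and 13.2 RPKM, 3.03). PCR1, a plasma membrane protein gene of cadmium resistance, was at 26.6 RPKM in Col-0 and 480.1 RPKM in Can-0 (4.13), and PCR2 beside it at 1.43 RPKM and 11.3 RPKM (2.34). The transcription factor genes NAC003 (0.914 and 7.83 RPKM, 2.21) and NAC004 (0.940 and 10.8 RPKM, 2.61) made another pair. On the lower side AT1G23935 and AT1G23950 were adjacent (-2.26 and -2.93), and the thionin AT1G66100 lay beside AT1G66090, a TIR-NBS resistance gene at 11.4 RPKM and 1.21 RPKM (-2.49).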

How the data were processed

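Polyadenylated RNA was sequenced from 1 library for each accession and tissue, 6 libraries in all; the 2 seedling libraries are the groups compared. The RPKM values were computed and deposited by the authors, named as RPKM per the file headers. Per the submitters' processing notes the builds were TAIR 9 and TAIR 10, with nothing said of which served for what. Aligner, counter, strand setting, the handling of multiply matching reads, and the genome on which Can-0 reads were placed: these were not given in the sources used here, and each can change the values of genes that differ in sequence between accessions or have close copies.

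From these values log2(RPKM + 1) differences were taken for genes with at least 1 RPKM in either seedling library and read at thresholds of 2 and 1, with Python 3.11.15, numpy 2.4.6, pandas 2.3.3 and scipy 1.17.1, and figures with matplotlib 3.10.9. No test was made, since each group has 1 library. Depth was estimated from the step between small values in 17012 genes with a single annotated transcript. The estimates of the 6 libraries ran from 21810000 to 22900000 reads. Intervals (95%, exact binomial for the Can-0 share of the reads, no constant added) cover counting error only. Gene names, order, lengths and promoters come from the RefSeq annotation of assembly TAIR10.1, whose build was not matched to that of the files. Of 28775 features 28009 matched it and 766 did not. Near-identical copies are transcripts of at least 95% identity over at least 50% of the length by BLAST+ 2.17.0. The calculation was tested on simulated data.

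The 27 gene lists (488 genes) and the comparison itself were chosen with earlier results of these data known. The genes named are the 10 highest and 10 lowest, list members past 2 with up to 4 of the largest per list, 8 loci of known natural variation, and up to 10 in runs of neighbours; further list members are named to show the steps of a pathway and were chosen after their values were seen. Alternatives were the added constant (0.1, 5), the filter (5 RPKM, none), scaling (median-centred, quantile, without organelle genes and AT2G01021) and leaving out genes with copies. Certain loci were not analysed here.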

Additional observations from a re-analysis of the deposited data

Results flagged for a closer look

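A few named genes stood higher in the Can-0 seedling and lower in Can-0 in another tissue, by at least 2 in each. Only the 130 genes picked by the naming rules were screened. Over all called genes, 5 higher genes were opposite by at least 2 in root and 1 in floral bud, and 1 lower gene in root. COR27 differed by 4.36 in seedling and -2.10 in floral bud. KIN1 differed by 3.73 in seedling and -2.43 in root. CYP71A12 differed by 2.28 in seedling and -2.90 in root. Each value rests on 1 library per accession and tissue, and the difference between tissues was not tested. The tissues also differ in sequencing run and, for root, in growth on plates, and these cannot be told apart. In floral bud the Col-0 and Can-0 libraries came from different runs, 36 and 35, so accession and run cannot be told apart there.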

How the results depend on the processing

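The added constant was the setting that moved the counts. With 0.1 RPKM added in place of 1, 437 genes were higher and 374 lower in Can-0, 114 of the higher genes were also higher in root and 189 in floral bud, 162 of the lower genes were also lower in root and 181 in floral bud, and 106 called genes had a called neighbour. With 5 RPKM added the same counts were 67, 44, 10, 17, 10, 20 and 0, and 39 of the 64 named genes past 2 were still past it. Under the other settings (filter of 5 RPKM, no filter, median-centred, quantile normalization, totals without organelle genes and AT2G01021, no genes with copies) the counts ranged from 179 to 203 higher and 151 to 186 lower. Removing the filter could not change these counts, since outside it no difference exceeded 0.999963 in size. No list median took the opposite sign under these settings, but 14 of 26 moved by over 1.5 times under at least 1. With 5 RPKM added the medians were 0.61 for salicylic acid, 0.46 for indole, 0.24 for cell-surface receptor, 0.41 for iron storage, -0.37 for iron deficiency, -0.47 for shade, -0.16 for phosphate, -0.05 for flowering and 0.07 for heat shock genes. With a filter of 5 RPKM they were -0.35 for NLR, -0.52 for flowering, 0.74 for cold, 1.09 for iron storage and 0.07 for heat shock genes, and with no filter 0.21 for cold, -0.36 for iron deficiency and 0.07 for heat shock genes. Photosystem genes stood at -0.08 after quantile normalization, heat shock genes at 0.06 after it and after median-centring, and flowering genes at -0.12 after median-centring. The medians of the flower markers (-2.08 to -0.05) and root triterpene genes (0 to 4.98) rest on 1 gene each in the filter. No paired analysis was possible because every group holds a single library, all with the same replicate number. Leaving out a replicate was not possible for the same reason. At 1 RPKM in a gene of 1 kb, counting error alone allows a log2 ratio, with no constant added, of 0.91 either way. Small differences of weak genes cannot be resolved at this depth.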

Other observations

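Product families formed from the annotation after the values were seen gave these counts, with no test. Over all genes in the filter 1.13% were higher and 0.994% lower by at least 2. Of 125 cytochrome P450 genes in the filter, 8 were higher in Can-0 by at least 2 and 1 was lower (6.4% and 0.8%), among them the neighbours CYP71B22 (1.64 and 14.3 RPKM, 2.53) and CYP71B23 (2.79 and 30.3 RPKM, 3.05), which together with CYP71A13 and PAD3 belong to the CYP71 family. Of 42 glutathione S-transferase genes 3 were higher (7.14%) and none lower, and of 87 lectin genes 3 were higher (3.45%) and none lower. None of 317 ribosomal protein genes was past 2 in either direction, with a median of -0.01. Of 1088 genes annotated as uncharacterized or hypothetical proteins 31 were higher (2.85%) and 37 lower (3.40%).

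In 1 of the runs of neighbours the genes went in opposite directions. SYP41, a syntaxin of the trans-Golgi network, was at 6.14 RPKM in Col-0 and 0.104 RPKM in Can-0 (-2.69), and AT5G26970 beside it was at 0.946 RPKM and 24.1 RPKM (3.69). Both kept their direction in root (-3.03 and 3.01) and in floral bud (-3.17 and 4.43). The NLR gene ADR1-L3 and its neighbour AT5G47260 were listed at 0 in the Col-0 seedling and stood at 3.92 RPKM and 5.73 RPKM in Can-0, against the direction of most called NLR genes.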
